A study of Mus musculus with 6 samples.

Results

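Mitosis is driven by a cyclin-dependent kinase that is switched on by cyclins, held back by inhibitory kinases and switched off when the anaphase-promoting complex marks the cyclins for destruction; kinesin motors then help to divide the cell. C2C12 is a line of mouse myoblasts with the capacity to become muscle or osteoblast cells. Such genes are active while myoblasts multiply and are turned down when they leave the cell cycle to differentiate. Described here are 4 genes of this machinery, Ccna2, Pkmyt1, Kif20a and Cdc20, together with the gene that overlaps each of them: Exosc9, Paqr4, Cdc23 and Elovl1. Of these 8 genes, 6 were listed by name, and Cdc23 and Elovl1 were added because their intervals in the deposited table overlap those of Kif20a and Cdc20. They are 8 of 22753 genes in the table.

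RNA was taken from C2C12 cells after 2 days in medium with 1% DMSO (3 samples) or with 10 µM of a screening hit (3 samples), a dimethylated quinolinone bearing a phenylimidazole ring and here called the compound. The labels give no DMSO level for the compound samples. An effect of the compound and one of a difference in DMSO therefore cannot be told apart. All cells grew in the same serum-containing medium, and came from 1 line, so the data describe that line only; the labels name no other treatment or allele. The labels do not say whether the 3 samples of a group were separate cultures, so the p-values rest on a spread among samples that could be purely technical. The comparison asks how the compound alters the transcripts of the cells.

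Totals ran from 493406 to 952813 counts per library. Genes with exons that meet those of another gene on the opposite strand were 23.5% of the table and held 91.8% of its counts, whereas Actb and Gapdh, abundant in most cells, had mean counts of only 8.17 and 20.7. The labels call the library stranded, but the strand setting of the counting is not given in the sources used here. Which gene of an overlapping pair gave the counts under each name is therefore not known. Whether counts under a name came from that gene or from its partner on the opposite strand was not tested. Every value below is that of the counts filed under a name. DMSO replicate 3 had the highest total and stood apart from the other DMSO libraries. It was the lowest DMSO library for 7 of the 8 genes, all but Exosc9, and results are given with and without it where it moves them. Counts under muscle and bone marker names were low in both groups: the summed level was 117 to 220.3 CPM in DMSO and 154 to 189 with the compound over 12 myotube markers, and 46.3 to 79.8 and 48.7 to 67.5 over 7 osteoblast markers, of which Ibsp, Sp7 and Bglap were at 0 in all libraries. Over 7 myoblast markers it was 134 to 173 CPM in DMSO and 162 to 195 with the compound. Among the markers, Des, the muscle intermediate filament gene, rose 1.99-fold (adjusted p = 0.0160 in edgeR), and Msc, a gene for a myoblast transcription factor with a mean count of 19.3, named after its value was seen, had a log2 change of -1.21 (adjusted p = 0.0467). Myh3, Atp2a1 and Runx2 had log2 changes of 0.31, 0.10 and 0.01 (adjusted p = 0.640, 0.871 and 0.986). These are not all the markers tested. Of 3 tested myoblast markers 1 was higher and 1 lower, and 2 had negative log2 changes (median -0.27). Of 3 tested myotube markers none was called and none had a negative log2 change (median 0.31). The part of such shifts in the results below was not tested.

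The 4 pairs share one layout. In each, both genes run towards each other and overlap at their 3′ ends, by the exons of GENCODE M21 on mm10. Ccna2, which encodes cyclin A2, the cyclin needed for DNA replication and for entry into mitosis, lies on chromosome 3 at 36564866 to 36572150 on the minus strand. Exosc9, which encodes a subunit of the RNA exosome that trims and degrades RNA, lies at 36552606 to 36565729 on the plus strand. Their exons share 510 bp (36565218 to 36565727), outside the coding sequence of Ccna2 and including 156 bp of Exosc9 coding sequence. Pkmyt1, which encodes a kinase that keeps the mitotic kinase inactive until the cell is ready to divide, lies on chromosome 17 at 23726336 to 23736729 on the plus strand. Paqr4, a membrane protein gene of the progestin and adipoQ receptor family, lies at 23736186 to 23740330 on the minus strand, and 319 bp of exon are shared in 2 blocks, 187 bp of them coding in Pkmyt1 and none in Paqr4. Kif20a, which encodes a kinesin that acts at the central spindle in cytokinesis, lies on chromosome 18 at 34624624 to 34633265 on the plus strand. Cdc23, which encodes a subunit of the anaphase-promoting complex, lies at 34630951 to 34651735 on the minus strand; the shared exon sequence is the longest of the 4 pairs, 1271 bp, or 29.3% of Kif20a exons and 13.4% of Cdc23 exons. Cdc20, which encodes the activator that directs the anaphase-promoting complex in early mitosis, lies on chromosome 4 at 118432901 to 118437352 on the minus strand. Elovl1, a fatty acid elongase gene, lies at 118428093 to 118432953 on the plus strand, and the pair shares only 53 bp (118432901 to 118432953), none of it coding.

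**Figure D1:**
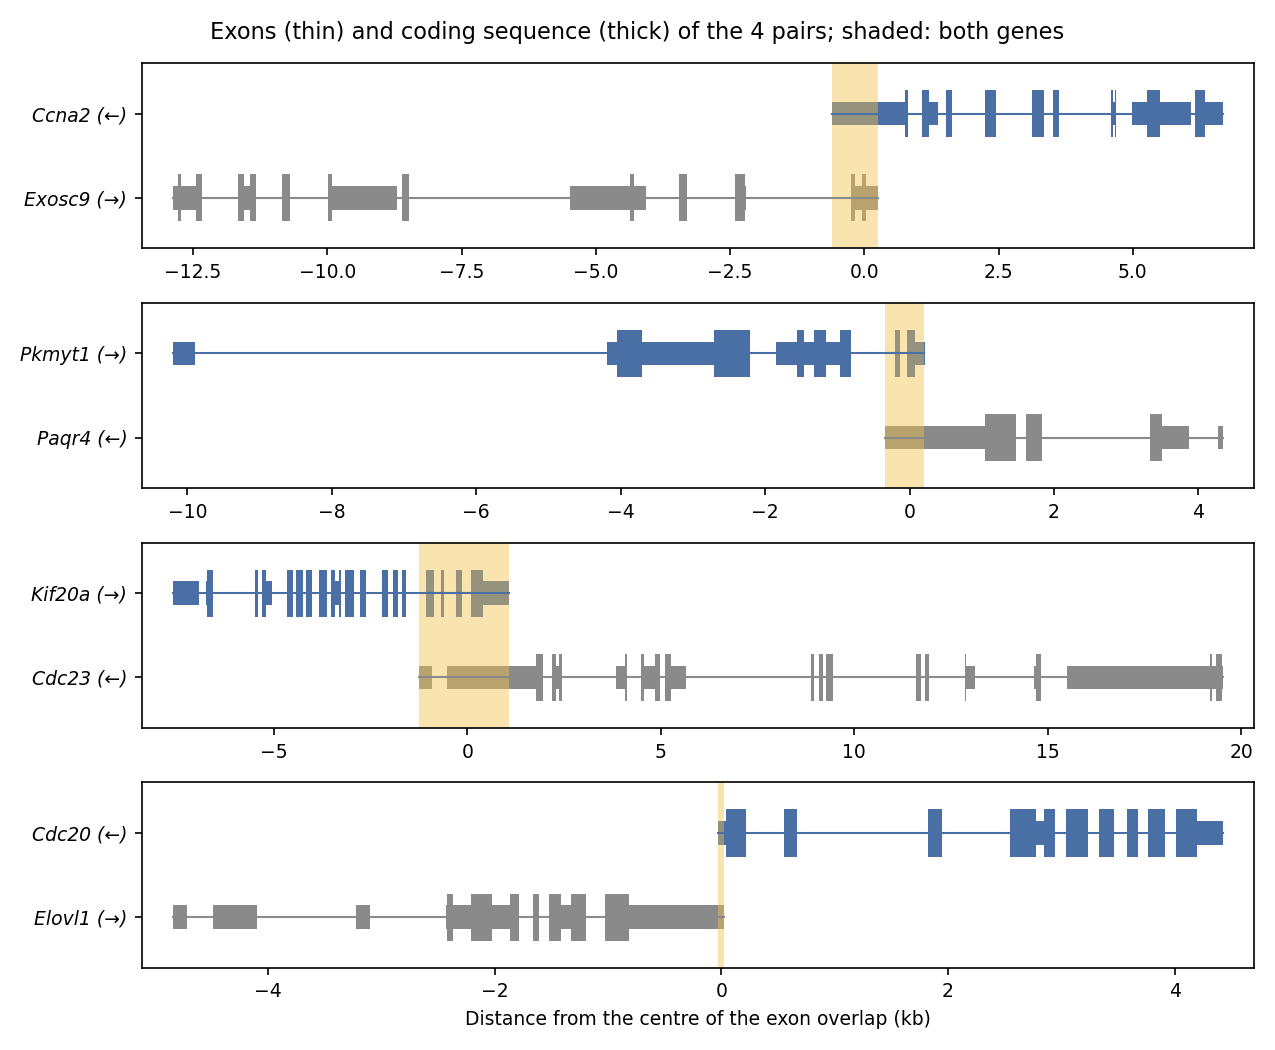
Exons (thin bars) and coding sequence (thick bars) of the 4 gene pairs, with the mitosis gene above its neighbour for Ccna2, Pkmyt1, Kif20a and Cdc20; the x axis is the distance from the centre of the exon overlap in kb, arrows give the strand, and the shaded span is covered by both genes. The pairs converge at their 3′ ends, with exon overlaps of 510, 319, 1271 and 53 bp from top to bottom.

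Promoter windows were searched for 3 of the 8 genes, Cdc20, Paqr4 and Elovl1. The other genes were not searched, whether or not the RefSeq table for GRCm38.p6, the source of the windows, holds one for them. A window runs from 250 bases before the annotated start to 50 after it. The windows are shown because cell cycle promoters are known for CCAAT boxes, for an element near the start called the cell cycle homology region, and for E2F sites. Capitals mark matches on either strand to the letters CCAAT, to the homology region letters TTTGAA and to the E2F site letters GCGCGAAA; the motifs did not overlap one another in these windows. The windows are chr4:118437294-118437593 (minus strand) for Cdc20, chr17:23740281-23740580 (minus strand) for Paqr4 and chr4:118427843-118428142 (plus strand) for the upstream start of Elovl1.
Cdc20: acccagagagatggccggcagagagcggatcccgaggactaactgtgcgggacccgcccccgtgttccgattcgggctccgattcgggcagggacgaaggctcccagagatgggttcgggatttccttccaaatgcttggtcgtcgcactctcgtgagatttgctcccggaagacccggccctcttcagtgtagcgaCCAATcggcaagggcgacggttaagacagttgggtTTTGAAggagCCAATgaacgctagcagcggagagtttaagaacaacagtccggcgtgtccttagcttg
Paqr4: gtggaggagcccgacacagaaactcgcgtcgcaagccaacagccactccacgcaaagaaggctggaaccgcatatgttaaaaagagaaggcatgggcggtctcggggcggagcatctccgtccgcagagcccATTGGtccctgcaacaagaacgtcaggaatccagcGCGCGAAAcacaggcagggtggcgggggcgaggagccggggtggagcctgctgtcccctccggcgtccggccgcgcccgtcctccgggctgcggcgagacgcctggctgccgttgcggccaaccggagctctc
Elovl1: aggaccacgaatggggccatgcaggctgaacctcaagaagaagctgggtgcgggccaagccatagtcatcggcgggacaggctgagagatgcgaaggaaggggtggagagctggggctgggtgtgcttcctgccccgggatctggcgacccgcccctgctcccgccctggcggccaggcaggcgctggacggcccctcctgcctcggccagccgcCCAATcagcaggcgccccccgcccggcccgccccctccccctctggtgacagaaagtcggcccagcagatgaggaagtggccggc
The Cdc20 window held CCAAT at 53 and 8 bases before the start and TTTGAA between them, 18 bases before it. The Paqr4 window held CCAAT on the reverse strand, 118 bases before the start, and GCGCGAAA 83 bases before it. The Elovl1 window held 1 CCAAT, 35 bases before the start. A second Elovl1 window, chr4:118429451-118429750 (plus strand), was searched as well and held no match. Over the 32851 windows searched, 37.4% held CCAAT, 17.9% TTTGAA, 6.95% both of these, and 0.323% GCGCGAAA. These matches are letters in a window and no measure of binding.

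Counts were lower with the compound under 5 of the 7 genes that had enough counts to test, and higher under none. The 5 were all 4 neighbours, Exosc9, Paqr4, Cdc23 and Elovl1, and 1 of the genes they overlap, Pkmyt1. Cdc23, counted here as a neighbour, is a mitosis gene as well, for a subunit of the anaphase-promoting complex. Ccna2 and Kif20a did not pass the test, and Cdc20 had too few counts for it. Pkmyt1 and Elovl1 passed the filter for low counts only through their DMSO libraries, where they are high, which favoured a lower call. At a mean count of at least 50 they were not tested, and 3 of the genes were called lower. Across all genes of the table, 2440 were tested, and 10.5% were called lower and 7.50% higher at an adjusted p under 0.05 in edgeR's quasi-likelihood test. In such bulk samples, fewer cells in mitosis and less RNA per cell cannot be told apart.

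Counts under the cyclin gene Ccna2 were 289, 328 and 290 in DMSO replicates 1 to 3 and 196, 281 and 286 in compound replicates 1 to 3. Scaled to CPM, counts over the TMM-scaled total of the tested genes, they were 501, 543 and 278 in DMSO and 441, 594 and 593 with the compound. The groups overlapped, with DMSO replicate 3 lowest of all 6 libraries. The log2 change was 0.31 ± 0.23 (SE, n = 3 per group; 95% interval -0.17 to 0.80; adjusted p = 0.387 in edgeR), and 0.05 without DMSO replicate 3.

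Counts under Exosc9, on the other strand of the same locus, were 1466, 1401 and 2532 in DMSO and 285, 277 and 381 with the compound. As CPM they were 2542, 2318 and 2431 against 642, 586 and 790.5. The DMSO libraries agreed closely here, replicate 3 included, and every compound library lay far below them. The fall was 3.61-fold (log2 change -1.85 ± 0.15, SE; adjusted p = 5.03e-07 in edgeR), the 13th smallest p-value of the 2440 genes.

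Pkmyt1 and Paqr4 fell together. Counts under the kinase gene Pkmyt1 were 54, 46 and 71 in DMSO and 14, 6 and 7 with the compound, or 93.7, 76.1 and 68.2 against 31.5, 12.7 and 14.5 CPM. The groups did not overlap, and the fall was 4.03-fold (log2 change -2.01 ± 0.38, SE; adjusted p = 0.00182 in edgeR). Of Ccna2, Pkmyt1 and Kif20a, the genes tested that are not counted as neighbours, only Pkmyt1 fell under its own name. Counts under Paqr4 were 176, 165 and 278 in DMSO and 34, 23 and 26 with the compound, or 305, 273 and 267 against 76.5, 48.7 and 53.9 CPM, a fall of 4.71-fold (log2 change -2.24 ± 0.23, SE; adjusted p = 8.52e-06 in edgeR). Compound replicate 1 was the highest compound library for both genes.

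Counts under the kinesin gene Kif20a were 532, 508 and 596 in DMSO and 331, 395 and 399 with the compound. As CPM they were 923, 841 and 572 in DMSO and 745, 836 and 828 with the compound. The groups overlapped, the compound libraries lying between DMSO replicate 3 and DMSO replicate 1. The log2 change was 0.05 ± 0.18 (SE; 95% interval -0.33 to 0.43; adjusted p = 0.876 in edgeR), and without DMSO replicate 3 it was -0.14 (adjusted p = 0.375).

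Counts under Cdc23 were 1990, 1995 and 1505 in DMSO and 524, 527 and 617 with the compound. As CPM they were 3451, 3301 and 1445 against 1180, 1115 and 1280. All compound libraries lay below all DMSO libraries, but DMSO replicate 3 stood much nearer to them than to the other DMSO libraries. The fall was 2.29-fold (log2 change -1.19 ± 0.24, SE; adjusted p = 0.00311 in edgeR), and the log2 change was -1.51 without DMSO replicate 3 (adjusted p = 8.97e-20).

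Cdc20, the activator of that complex, had 3, 4 and 4 counts in DMSO and 0, 3 and 1 with the compound. This was under the filter for low counts, and no change was tested; a count of 0 in compound replicate 1 allows up to 3 counts, or 6.08 CPM of that library's total, a limit that covers counting error only. Counts under Elovl1 were 28, 24 and 27 in DMSO and 5, 2 and 2 with the compound, or 48.6, 39.7 and 25.9 against 11.3, 4.23 and 4.15 CPM. The groups did not overlap despite the low counts, and the fall was 5.64-fold (log2 change -2.49 ± 0.54, SE; 95% interval -3.65 to -1.34; adjusted p = 0.00510 in edgeR).

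**Figure D2:**
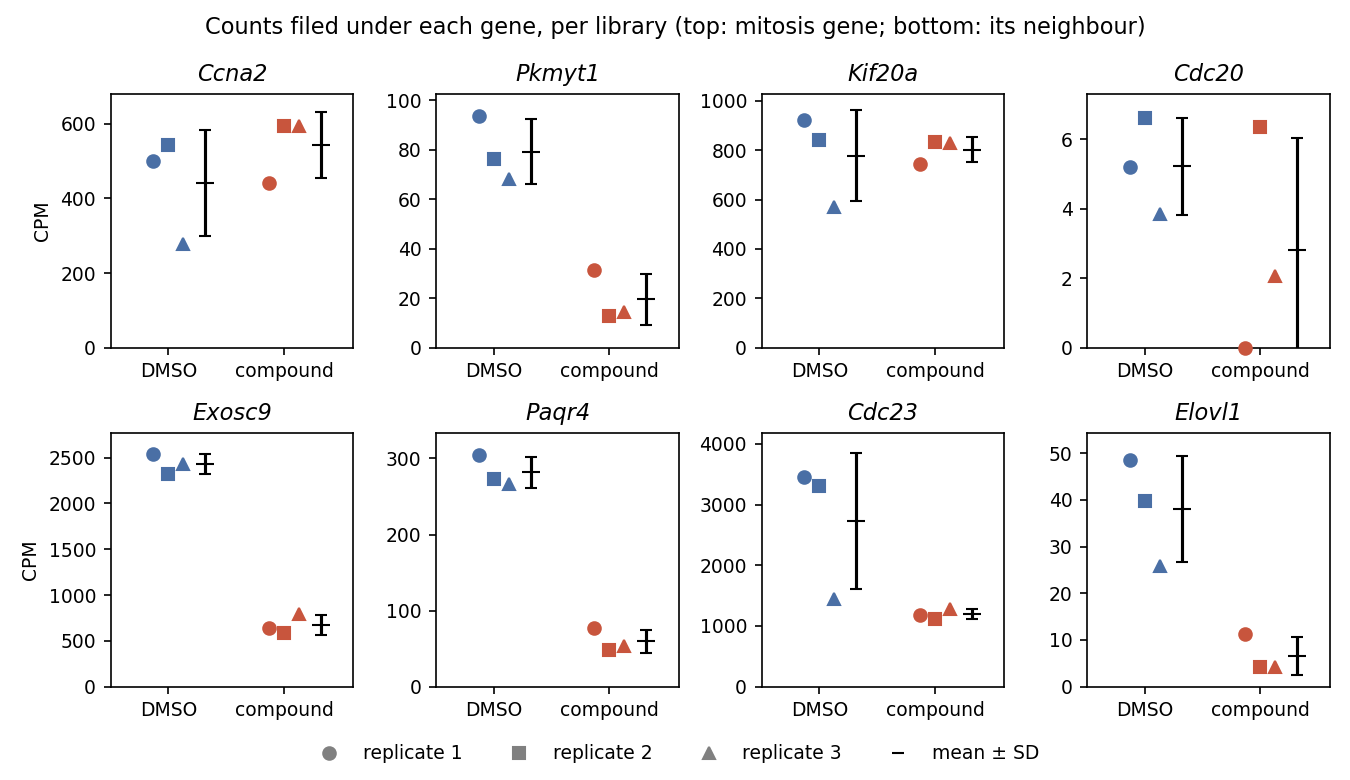
CPM (y axis, linear from 0, a scale of its own in each panel) under each of the 8 genes in the 3 DMSO and 3 compound libraries; symbols give the replicate, and the bar beside each group is the mean ± SD. Exosc9, Paqr4, Pkmyt1, Cdc23 and Elovl1 show every compound library below every DMSO library, whereas the groups overlap for Ccna2, Kif20a and Cdc20.

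In the 5 genes that fell, no compound library reached a DMSO library, which held for 19.2% of all tested genes in this direction. The 5 were picked by their lower call, so this separation largely restates that call. The authors' deposited table listed log2 fold changes of -1.84 for Exosc9, -2.19 for Paqr4, -1.84 for Pkmyt1, -1.12 for Cdc23 and -2.01 for Elovl1, with adjusted p from 9.07e-36 to 0.00826. The authors' deposited table gave 0.26 for Ccna2 and 0.02 for Kif20a, with adjusted p of 0.679 and 0.972. It gave no adjusted p for Cdc20.

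Per kb of exon, the counts under the names could be set beside each other. This takes the counts under a name to come from all exons of that gene, which was not tested. In DMSO, Exosc9 stood highest at 516 ± 23.8 CPM per kb (SD, n = 3), above Cdc23 at 288 ± 118 and Kif20a at 179 ± 42.3 CPM per kb, which did not differ beyond their spread. Ccna2 at 108 ± 34.8 and Paqr4 at 107 ± 7.79 CPM per kb were alike, and Pkmyt1 at 21.8 ± 3.58, Elovl1 at 13.96 ± 4.19 and Cdc20 at 2.79 ± 0.74 were lowest. With the compound, Kif20a led at 185 ± 11.6 CPM per kb. Exosc9 at 143 ± 22.4, Ccna2 at 133 ± 21.6 and Cdc23 at 125 ± 8.76 CPM per kb lay within their spread of one another, and Paqr4 had dropped to 22.6 ± 5.60 and Pkmyt1 to 5.37 ± 2.85 CPM per kb. Elovl1 and Cdc20 remained lowest, at 2.401 ± 1.497 and 1.503 ± 1.73 CPM per kb.

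The split of a pair's counts stood apart between the groups in the Ccna2 and Kif20a pairs and overlapped in the Pkmyt1 pair. Ccna2 took 16.5%, 19.0% and 10.3% of the counts of its pair in the DMSO libraries and 40.7%, 50.4% and 42.9% in the compound libraries. Kif20a took 21.1%, 20.3% and 28.4% in DMSO and 38.7%, 42.8% and 39.3% with the compound. In both pairs the groups were apart, and the Wilson 95% intervals of the single libraries did not bridge the gap. For Kif20a the highest DMSO interval ended at 30.3% and the lowest compound interval began at 35.5%. These intervals cover counting error only, not the spread among samples. Within DMSO, the Kif20a intervals of replicates 2 and 3 did not meet either, at 18.8% to 21.9% and 26.5% to 30.3%. Pkmyt1 took 23.5%, 21.8% and 20.3% in DMSO and 29.2%, 20.7% and 21.2% with the compound, and these groups overlapped. The Cdc20 pair had only 3 to 5 counts in each compound library, too few to place its share.

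**Figure D3:**
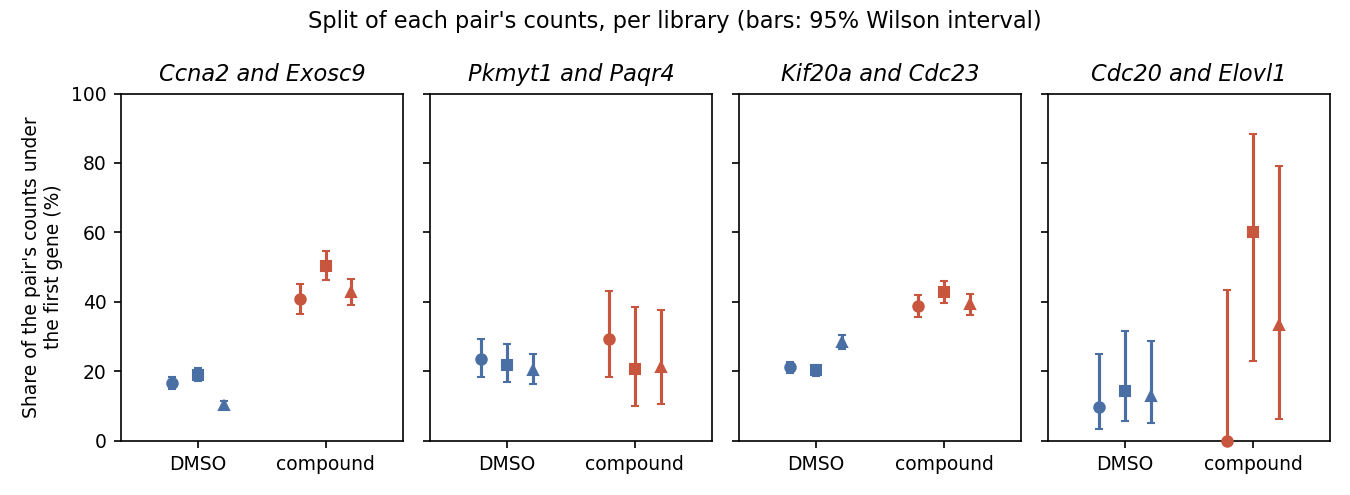
Share of each pair's counts filed under the first-named gene (y axis, %), per library, with 95% Wilson intervals that cover counting error only; symbols give the replicate from 1 (circle) to 3 (triangle). Shares are 10.3% to 19.0% in DMSO and 40.7% to 50.4% with the compound for Ccna2, and 20.3% to 28.4% and 38.7% to 42.8% for Kif20a, while the Pkmyt1 shares overlap.

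The difference between neighbour and mitosis gene was tested on the log2 ratio of their counts (0.5 added to each). The ratio was 2.52 ± 0.54 in DMSO and 0.31 ± 0.29 with the compound in the Ccna2 pair (SD, n = 3; difference -2.21). It was 1.74 ± 0.35 and 0.57 ± 0.13 in the Kif20a pair (difference -1.17). For both, the two-sided exact permutation p was 0.10, the smallest that 3 against 3 samples allow, and 0.20 when adjusted over the 4 pairs. In the Pkmyt1 pair the ratio was 1.83 ± 0.13 and 1.64 ± 0.34 (exact permutation p = 0.60), and in the Cdc20 pair 2.69 ± 0.30 and 1.24 ± 2.02 (exact permutation p = 0.40). No pair could therefore pass a threshold of 0.05 in this exact test, and no other test was run on the ratios.

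Summing the counts of each pair before the fit, a step added once the values were known, removes the split between names. All 4 sums were lower with the compound, where 10.4% of the 2437 features tested that way were called lower. The Ccna2 and Exosc9 sum went from 2871 ± 168 to 1216 ± 154 CPM (SD, n = 3), or 2.36-fold lower (adjusted p = 2.00e-05 in edgeR). The Pkmyt1 and Paqr4 sum was 4.55-fold lower (adjusted p = 1.23e-05 in edgeR) and the Cdc20 and Elovl1 sum 4.49-fold lower (adjusted p = 0.00522 in edgeR). The Kif20a and Cdc23 sum was 1.76-fold lower (adjusted p = 0.0173 in edgeR), from 3511 ± 1299 CPM in DMSO. These sums repeat the counts of the fallen neighbours and are no second measurement.

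Beyond the 8 genes, 5 lists of mitosis genes were read under their own names. Of 131 listed genes present, 24 could be tested, 3 were lower and 1 higher, and the median log2 change was 0.01, beside 0.02 over all tested genes. These shares of 24 lie near the 10.5% lower and 7.50% higher of all tested genes, and the smaller lists, of 4 to 6 tested genes each, are too short to be set against them. Among the 24 are Ccna2, Pkmyt1, Kif20a and Cdc23. Of 4 tested cyclin and kinase genes only Pkmyt1 changed. Of 5 tested genes of the anaphase-promoting complex and spindle checkpoint, Cdc23 and Ube2c fell; Ube2c, the ubiquitin-conjugating enzyme of that complex, went from 9020, 9819 and 4698 CPM in DMSO to 4592, 4333 and 4029 CPM with the compound, a fall of 1.82-fold (adjusted p = 0.00815 in edgeR). DMSO replicate 3 again lay beside the compound libraries. The Ube2c call was lost in edgeR without compound replicate 1 (adjusted p = 0.0582) or compound replicate 2 (0.0538). Exons of Ube2c share 592 bp with those of Tnnc2, a myotube marker gene on the opposite strand with a mean count of 8.33. None of 5 kinesin and cytokinesis genes passed; Kif4, a chromosome-bound kinesin gene, was at -0.07 ± 0.26 on the log2 scale (SE, adjusted p = 0.872 in edgeR), which without DMSO replicate 3 was -0.40 (adjusted p = 0.0474). Prc1, of the same list and a gene for a protein that bundles the central spindle, was at 0.41, and at 0.48 without that library (adjusted p = 0.0285). None of 6 kinetochore genes passed, with log2 changes of 0.07 for Mlf1ip (also called Cenpu) and -0.12 for Cenpo. Of 4 spindle and condensin genes Ncapg, a condensin subunit gene, rose 2.69-fold, from 106, 124 and 174 CPM in DMSO to 405, 379 and 319.5 CPM (adjusted p = 0.000321 in edgeR).

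The families of Exosc9 and Paqr4 were read from lists of their own. Of 5 tested RNA exosome genes Exosc9 fell, and Skiv2l2, which encodes the helicase that feeds RNA to the nuclear exosome, rose 2.11-fold from 354 ± 77.5 to 743 ± 112 CPM (SD, n = 3; adjusted p = 0.00126 in edgeR). The other subunits Exosc3, Exosc4 and Exosc8 had log2 changes of -0.11, 0.49 and 0.28. Of the progestin and adipoQ receptor family only Paqr4 and Paqr3 could be tested, and Paqr3 was at -0.36 ± 0.20 on the log2 scale (SE, adjusted p = 0.245 in edgeR).

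Genes on the opposite strand of mitosis genes were read next, because Exosc9, Paqr4, Cdc23 and Elovl1 are such genes. The table held 28 genes whose exons overlap those of a listed mitosis gene by at least 50 bp on the opposite strand, and 18 could be tested. Of these, 10 were lower and none higher, with a median log2 change of -1.03. Without the genes described above, 6 of 13 were lower and none higher, with a median of -0.75; over all 1655 tested genes with any such overlap, 12.1% were lower and the median was -0.03. The 6 were Kctd18, Lcorl, Pdzd11, Spef1, Sap18 and Gm3550. Of these, Sap18 and Gm3550 had mean counts of 27.3 and 25.5 and passed the filter for low counts only through their DMSO libraries. Neither was tested at a mean count of at least 50, where 7 opposite-strand genes, those described above included, were called lower and none higher. The lists were chosen with earlier results of these data known. By layout, 6 of 12 convergent genes and 4 of 6 others were lower; without Exosc9, Paqr4, Cdc23, Elovl1 and Kif20a, all convergent, it was 2 of 7 and 4 of 6.

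Kctd18, whose exons overlap 2455 bp of the cohesin protector gene Sgo2a, went from 1856, 2000.5 and 1425 CPM in DMSO to 867, 677 and 851 CPM with the compound, a fall of 2.20-fold (adjusted p = 0.000224 in edgeR). Its groups did not overlap, while Sgo2a itself had a mean count of 0.333. Lcorl, which overlaps 944 bp of Ncapg, went from 642, 617 and 294 to 167, 144 and 195 CPM, a fall of 3.05-fold (adjusted p = 0.000723 in edgeR). It moved against Ncapg, which rose. Pdzd11, opposite 832 bp of Kif4, fell 2.93-fold from 131 ± 25.8 CPM (SD, n = 3), and Spef1, opposite 92 bp of the phosphatase gene Cdc25b, fell 1.89-fold from 452 ± 88.8 CPM. Sap18, opposite 78 bp of Ska3, a gene of the spindle and kinetochore complex, fell 2.63-fold (adjusted p = 0.0130 in edgeR), and Gm3550, opposite 623 bp of the phosphatase gene Cdc25c, fell 2.26-fold (adjusted p = 0.0302 in edgeR). The Gm3550 call was lost without DMSO replicate 2 or any 1 compound library (adjusted p up to 0.107), and that of Sap18 without DMSO replicate 2 or compound replicate 2 (up to 0.0566).

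Of the 8 that did not pass, Kif20a is one, being opposite Cdc23. Ccdc111, opposite Cenpu, was at -0.75 ± 0.29 on the log2 scale (SE, adjusted p = 0.0827 in edgeR), and Derl2, opposite the kinetochore gene Mis12, at -0.54 ± 0.35. Both were called lower without DMSO replicate 3, at -1.02 and -0.90. Adcy3, Sco2, Tymp, Cep63 and Tomt had log2 changes of -0.23 to 0.30 and overlap Cenpo, Ncaph2, Ncaph2, Anapc13 and Anapc15. Without DMSO replicate 3, 13 of 19 opposite-strand genes were lower, all 10 named above among them, while lower calls over all genes were 359 of 2549 (14.1%) without that library.

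**Figure D4:**
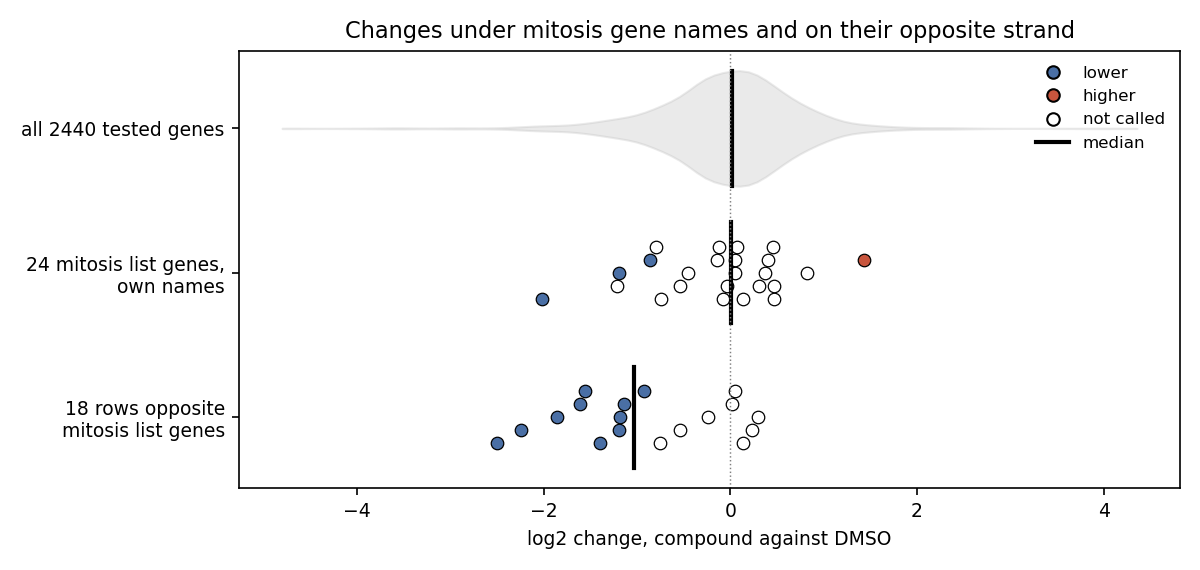
Log2 change with the compound (x axis) over all 2440 tested genes (grey density), 24 mitosis list genes under their own names and 18 genes on the opposite strand of mitosis list genes; points are genes, filled where called lower or higher at an adjusted p under 0.05, and vertical bars are medians. The median is 0.02 over all genes, 0.01 under the mitosis names and -1.03 on their opposite strand; Cdc23 and Kif20a stand in both groups of points.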

How the data were processed

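Per the submitters' processing notes, reads were handled with STAR 2.3.0e and HTSeq 0.6.0 on build mm10; neither strand setting nor annotation release is stated in those notes. The authors deposited raw counts per gene, which entered every test. They also deposited a normalized signal (counts over 1 size factor per library), not used, and DESeq2 log2 fold changes, a Wald score and p-values, quoted only as the authors' deposited table. The 24725 deposited rows held 22753 identifiers; 930 repeated ones had equal counts and were used once. GENCODE M21 held 96.0% of them and gave strands, exon unions and overlaps.

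The test was edgeR's quasi-likelihood F test (version 4.0.16, R 4.3.3), two-sided, after TMM scaling and filterByExpr, Benjamini-Hochberg over 2440 genes, threshold 0.05. SE is the absolute log2 change over the square root of F. Total counts were 493406 to 952813 per library and cover the table's genes only. On simulated counts of this comparison (2312 genes tested), 59.8% of 2-fold and 97.8% of 4-fold changes were recovered, with 4 false calls of 149. Simulated counts were drawn independently for each gene and held no library that stood apart as DMSO replicate 3 did. Whether these rates hold for the real libraries was not tested. Replicates within a group differed by more than counting noise (chi-square per degree of freedom 2.00 to 14.1). Replicate numbers did not pair samples (correlations of same-numbered deviations -0.01, 0.02 and 0.02). Alternatives were a replicate block, each library left out, other filters and overlaps, limma-voom (limma 3.58.1), upper-quartile scaling, RLE factors and DESeq2 1.42.0. Exact permutations ran in scipy 1.17.1 on Python 3.11.15, and plots in matplotlib 3.10.9.

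The members, gene lists and tests were chosen with earlier results of these data known. Named were all 8 genes, list members past the threshold with a mean count of at least 20 (else the 2 of highest count), and up to 12 such opposite-strand genes. Exosc3, Exosc4, Exosc8, Paqr3, Prc1 and the opposite-strand genes that did not pass were added after their values were seen.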

Additional observations from a re-analysis of the deposited data

How the results depend on the processing

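The falls of Exosc9, Paqr4, Pkmyt1, Cdc23 and Elovl1 passed the threshold in every alternative that tested them, with log2 changes of -1.999 to -1.77, -2.44 to -2.12, -2.51 to -1.79, -1.51 to -1.02 and -3.09 to -2.27 and adjusted p of at most 0.0430. Pkmyt1 and Elovl1 were not tested at a mean count of at least 50, which left 3 of the genes called lower. Ccna2 passed nowhere (0.05 to 0.47). Kif20a passed nowhere either, and its sign turned with no filter (-0.044) and without DMSO replicate 3 (-0.14, the lowest with 1 library left out, the highest being 0.16). With the replicate block, 197 genes were higher and 245 lower, 5 of them among the genes described; it changed no call named here. Leaving out 1 library gave 93 to 259 genes higher and 143 to 359 lower over the table, 1 to 2 mitosis list genes higher and 2 to 4 lower, and 8 to 13 opposite-strand genes lower. Without compound replicates 1, 2 and 3 the higher genes numbered 93, 103 and 109 and without DMSO replicate 2 they numbered 114; the lower genes numbered 143 and 151 without compound replicates 1 and 2. Gm3550 missed the threshold with DESeq2 (adjusted p = 0.0556) and with no filter (0.0504), where Ccdc111 (0.0231) and the cytokinesis gene Cit (0.0241), untested otherwise, were called lower. The cause of these shifts was not tested. Counts limit Cdc20 most: its log2 change was -0.89 with no filter (adjusted p = 0.712).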
